A study of Sus scrofa with 12 samples.

Results

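ATAC-seq, in which a transposase inserts adapters into accessible DNA and open chromatin therefore yields more reads, was examined at 6 genes of pig body size and vertebra number: PLAG1, HMGA2, LCORL, NCAPG, NR6A1 and VRTN. Their open regions were chosen by position alone, as those whose midpoint lay in the gene body of Sscrofa11.1 or within 50 kb of it. They were 72 of the 140081 regions of the table, in the windows of 6 of 19550 protein-coding genes, and 2 of them lay in the windows of both NCAPG and LCORL, which are neighbours. The tissue was the longissimus dorsi, a back muscle, of Duroc boars and Luchuan boars killed after an overnight fast at the age of 180 days, all fed alike. Duroc is a lean breed that grows fast and Luchuan a fat Chinese breed that grows slowly. Each breed had 3 ATAC-seq samples, but the deposited table holds 1 read count per region and breed. It was read as pooled over the boars, so no value below has a spread between animals and no difference between the breeds could be tested.

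These genes are known mostly for growth and the shape of the trunk before and after birth. PLAG1 is a zinc finger transcription factor that activates growth factor genes such as IGF2, and HMGA2 is a chromatin protein of embryonic cells that bends AT-rich DNA, the loss of which makes mice small. LCORL is a transcriptional cofactor and NCAPG a subunit of condensin I, which compacts chromosomes in mitosis, and their shared locus is tied to body size in many mammals. NR6A1, also called GCNF, is an orphan nuclear receptor that shapes the trunk of the embryo, and VRTN encodes vertnin. NR6A1 and VRTN are the genes best known for the number of vertebrae in pigs.

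The 140081 regions of the table held medians of 61 Duroc and 38 Luchuan reads. The log2 ratio of Luchuan to Duroc reads, with 1 read added to each, had a median of -0.57 over all regions. This median was set to 0, which multiplies Luchuan reads by 1.48, and every ratio below is on that scaled log2 scale, with positive values for more Luchuan reads. Each carries a 95% Clopper-Pearson interval, which covers counting error only. Whether PCR copies of a molecule were removed is not given, and the boars are not separate. Regions called as a peak in both breeds are termed common, and the others Duroc-specific or Luchuan-specific. All 10 skeletal muscle markers, among them ACTA1, CKM and TTN, had an open region within 2 kb of a gene end, with a median signal of 1027 reads per kb, while 1 of 3 liver genes and neither of 2 epidermal genes had one. Of the other cells of muscle, 1 of 3 adipocyte, 1 of 3 endothelial, 3 of 3 immune and 3 of 3 fibroblast markers had such a region, and 3 of 3 neuron genes did too. Of all protein-coding genes 73.9% had one, so its presence alone says little about cell type. The median signal over all genes, with 0 for a gene without such a region, was 459 reads per kb. In bulk tissue, fewer cells of a type and less open chromatin per cell cannot be told apart.

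On this scale, most chromatin at these 6 genes was about equally open in the breeds. The 72 regions had a median log2 ratio of 0.053, with the middle 50% of them between -0.19 and 0.43, against -0.33 to 0.33 for all regions. Luchuan was the higher breed at 41 regions and Duroc at 30, where the whole table had 70015 and 70017. This excess lay in the 26 regions under 50 reads, with Luchuan higher at 19 and Duroc at 7. Among all regions under 50 reads, Luchuan was higher at 63.4%. At 50 reads or more, Luchuan was higher at 22 of the 46 regions and Duroc at 23, where Luchuan was higher at 45.0% of all such regions. The 34 common regions held 6420 Luchuan and 9114 Duroc reads. None of them differed by 2-fold or more, where 2.39% of all common regions of the table did. The 18 Duroc-specific regions had a median of -0.61 and the 20 Luchuan-specific regions a median of 0.92. A peak called in 1 breed was called from that breed's reads, so these directions are partly set by the calling. Over the whole table the medians were -0.36 for Duroc-specific and 0.78 for Luchuan-specific regions. Of the Luchuan-specific regions at the 6 genes, 6 of 20 were past 2-fold toward Luchuan, where 36.1% of all Luchuan-specific regions were, and of the Duroc-specific regions 3 of 18 were past it toward Duroc, where 14.4% were.

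A difference of 2-fold or more was found at 9 of the 72 regions. Luchuan was higher at 6 of them, 8.33% of the regions, where 7.50% of all regions of the table were past 2-fold in that direction. These 6 lay at VRTN, HMGA2 and NR6A1, and each held fewer than 50 reads. Among all regions under 50 reads, 21.0% were past 2-fold toward Luchuan and 5.65% toward Duroc, so 6 of the 26 weak regions, or 23.1%, was close to the share in the whole table. Duroc was higher by 2-fold or more at 3 of the 72 regions, 4.17%, against 5.26% of all regions, and all 3 lay inside NR6A1. The balance of these calls depended on the scaling, with 3 toward Luchuan and 6 toward Duroc by clean read totals, 9 and 2 with equal sums of reads, and 3 and 3 with a factor for each of 10 classes of regions by signal. At 50 reads or more, 2 of 46 regions were past 2-fold toward Duroc and 0 toward Luchuan, where the whole table had 5.11% and 2.50%. The counting interval lay above 0 for 9 regions, where 13.8% of all regions had such an interval, and below 0 for 6, where 15.2% had one.

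**Figure D1:**
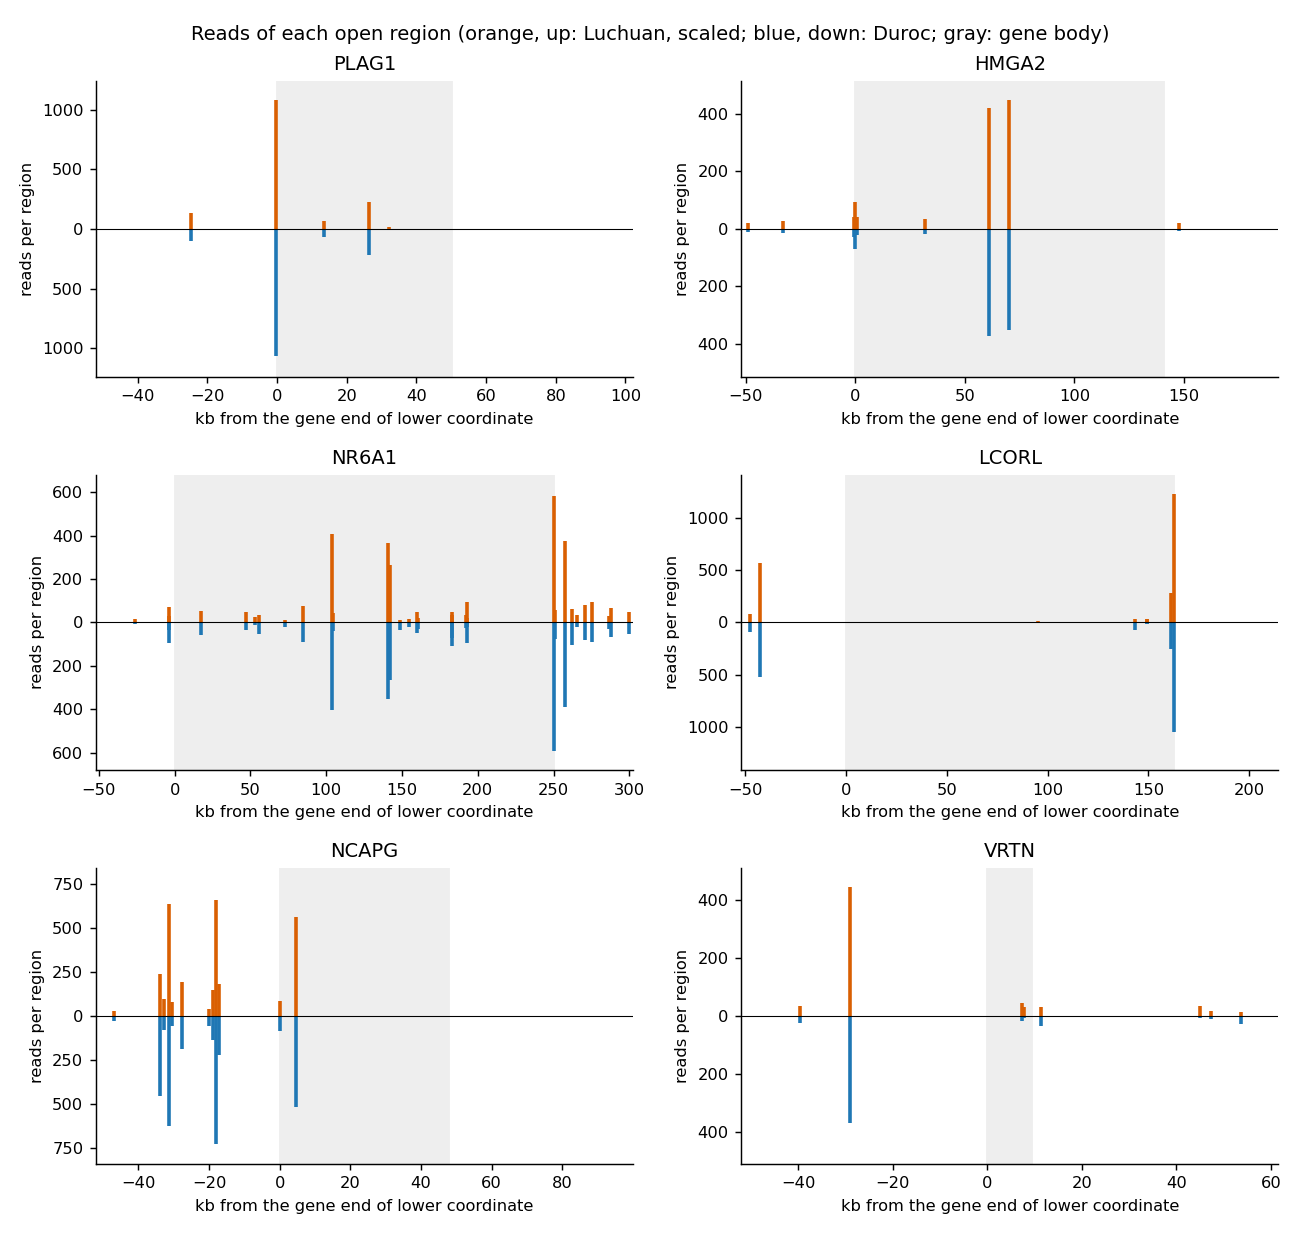
Reads of each open region against its distance in kb from the lower gene end, for the 6 genes; Luchuan reads are multiplied by 1.48 and drawn upward, Duroc reads are drawn downward, and the gray area is the gene body. The bars of the breeds mirror each other at most strong regions, such as 726 Luchuan and 1063 Duroc reads as deposited at the end of PLAG1.

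PLAG1 (gene ID 100154905) lies on chromosome 4 from 75646585 to 75696718, and its window held 5 regions. The strongest, from 75645615 to 75646864, spans the lower end of PLAG1 and also reaches into CHCHD7, the neighbour that ends at 75646218 in the RefSeq annotation. It had 726 reads in Luchuan and 1063 in Duroc, a log2 ratio of 0.021 (-0.12 to 0.16). By clean read totals it was at -0.18, outside that interval. This region alone held 72.1% of the reads of the window. With the median of all regions set to 0, it was the most evenly open of the 5. Inside the gene, the common region from 75672896 to 75673323 held 152 reads in Luchuan and 217 in Duroc, a log2 ratio of 0.06 (-0.25 to 0.36), and that from 75659968 to 75660211 had 47 and 64. The weakest, from 75678619 to 75678770, was Luchuan-specific with 10 reads in each breed. Farthest from 0 among regions of 50 reads or more was the one 24.6 kb below the gene, from 75621760 to 75622208, with 90 Luchuan and 101 Duroc reads and a log2 ratio of 0.41 (-0.022 to 0.83). All 5 ratios were above 0, and the interval of each included 0.

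HMGA2 (gene ID 100513206) lies on chromosome 5 from 30188521 to 30329635 with no other protein-coding gene in its window. It had 9 regions, all with a ratio above 0 with this scaling. The most reads were not at an end of the gene but inside it. From 30249072 to 30250168 there were 283 Luchuan and 372 Duroc reads, a log2 ratio of 0.18 (-0.05 to 0.40). This region was at -0.027 by clean read totals. Another, farther into the gene from 30258257 to 30259175, had 301 Luchuan and 351 Duroc reads, a log2 ratio of 0.35 (0.12 to 0.57), and of the strong regions of HMGA2 it was the one whose interval excluded 0. Both were common to the breeds, and together they made up most of the accessibility recorded at the gene.

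Around the lower end of HMGA2, 3 weak regions lay within 2 kb. The common region from 30187995 to 30188397, just outside the gene, had 62 Luchuan and 71 Duroc reads, a log2 ratio of 0.38 (-0.14 to 0.89). The Duroc-specific region from 30187650 to 30187846 held 29 reads in Luchuan and 27 in Duroc, a log2 ratio of 0.67 (-0.13 to 1.49), so its ratio leaned away from the breed in which it was called. The Luchuan-specific region from 30189190 to 30189358, inside the gene, had 27 and 20 reads, a log2 ratio of 0.99 (0.12 to 1.91), just under 2-fold. No region lay within 2 kb of the upper end. The 2 regions past 2-fold were Luchuan-specific and faint, and both fell short of it with a factor for each of 10 classes by signal (0.81 and 0.83). One, 6.72 kb above the gene from 30336283 to 30336432, had 14 Luchuan and 7 Duroc reads, a log2 ratio of 1.48 (0.17 to 3.12). The other, 33.1 kb below it from 30155294 to 30155477, had 18 and 13 reads, a log2 ratio of 1.01 (-0.07 to 2.19). The remaining regions, both Luchuan-specific, had 24 and 19 reads inside the gene and 15 and 11 reads 48.8 kb below it, with log2 ratios of 0.89 and 0.99.

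LCORL (gene ID 100337668) lies on chromosome 8 from 12806878 to 12969370, and its window held 8 regions. The region from 12968825 to 12969929 spans the upper end of the gene and was the strongest of all 72, with 827 Luchuan and 1047 Duroc reads. Its log2 ratio was 0.23 (0.10 to 0.36), a small difference toward Luchuan that was larger than the counting error, and 0.026 when the counts were scaled by the clean reads of the libraries instead. Beside it, 370 bases away inside the gene, the region from 12968067 to 12968454 showed 190 Luchuan and 250 Duroc reads, a log2 ratio of 0.18 (-0.11 to 0.45). The long body of LCORL was otherwise almost without open regions. A Duroc-specific region from 12950051 to 12950367 held 23 reads in Luchuan and 70 in Duroc, a log2 ratio of -0.99 (-1.78 to -0.34), just under 2-fold. Closer to the upper end, 2 Luchuan-specific regions stood 38 bases apart, from 12956014 to 12956376, and held 43 Luchuan and 35 Duroc reads together, a log2 ratio of 0.86 (0.19 to 1.55). The remaining region of the body, from 12901770 to 12901919, had 11 and 8 reads.

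NCAPG (gene ID 100513670) lies on chromosome 8 from 12759225 to 12807164, so that its upper end overlaps LCORL. Its window held 12 regions, of which 2 lay in the gene body and none above it. The region from 12759229 to 12759469, at the lower end and also inside the overlapping gene DCAF16, had 57 Luchuan and 87 Duroc reads, a log2 ratio of -0.031 (-0.55 to 0.46). The stronger region from 12763442 to 12764388 spans the upper end of DCAF16, at 12763777, and had 380 Luchuan and 517 Duroc reads, a log2 ratio of 0.13 (-0.07 to 0.32). Both regions are also the 2 shared with the window of LCORL.

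The other regions of the NCAPG window lay below the gene, 9 of them in the body of FAM184B, which held 1422 Luchuan and 2367 Duroc reads. Most were even, among them the strongest of the window, which spans the upper end of FAM184B. From 12727498 to 12728289 there were 428 Luchuan and 625 Duroc reads, a log2 ratio of 0.025 (-0.16 to 0.20). In the strongest region, from 12740827 to 12741822, there were 445 and 731, a log2 ratio of -0.14 (-0.32 to 0.026). By clean read totals the strongest region was at -0.35, outside its interval. Between such regions stood a Duroc-specific one from 12725056 to 12725635, 33.9 kb below NCAPG, with 159 Luchuan and 455 Duroc reads. Its log2 ratio was -0.94 (-1.22 to -0.68), short of 2-fold, but it was past 2-fold by clean read totals, at -1.14. It held 614 reads, more than any other breed-specific region at the 6 genes. Only 755 bases away, the common region from 12726391 to 12726593 held 64 reads in Luchuan and 83 in Duroc, a log2 ratio of 0.20 (-0.30 to 0.68). The region of the window leaning most to Luchuan, from 12728598 to 12728761, had 54 and 60 reads, a log2 ratio of 0.42 (-0.14 to 0.97). Of the 12 ratios, 6 were above 0 and 6 below.

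NR6A1 (gene ID 100038028) lies on chromosome 1 from 265320597 to 265570941 and had 32 regions, more than any other of the 6 genes. The region from 265570584 to 265571382 spans the upper end of the gene and was its strongest, with 391 Luchuan and 593 Duroc reads, a log2 ratio of -0.029 (-0.22 to 0.16). Beside it, from 265571709 to 265571905, were 40 Luchuan and 77 Duroc reads, a log2 ratio of -0.36 (-0.96 to 0.19). The strong regions inside the gene were just as even. They had 273 Luchuan and 406 Duroc reads from 265423850 to 265424620, with a log2 ratio of -0.00054 (-0.23 to 0.22). From 265461298 to 265461771 they had 246 and 354, with a log2 ratio of 0.05. From 265462295 to 265462877 they had 177 and 264, with a log2 ratio of -0.0038. With this scaling, none of these strong regions leaned clearly to either breed. By clean read totals the region at the upper end was at -0.23, outside its interval and toward Duroc. The 16 common regions together held 1798 Luchuan and 2714 Duroc reads, a log2 ratio of -0.023 (-0.11 to 0.06).

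The larger differences toward Duroc at NR6A1 were in its 12 Duroc-specific regions, which held 269 Luchuan and 637 Duroc reads. In the gene body, 183 kb from the lower end, a pair of them lay 37 bases apart, from 265503178 to 265503481 with 23 Luchuan and 71 Duroc reads and from 265503519 to 265503865 with 31 and 107. Their log2 ratios were -1.01 (-1.80 to -0.36) and -1.18 (-1.84 to -0.63). With this scaling they were the only regions of the 6 genes with 50 reads or more past 2-fold. The weaker of them fell short of 2-fold with equal sums of reads (-0.99), with a factor for each of 10 classes of regions by signal (-0.95) and with 5 reads added (-0.91). The Duroc-specific region of LCORL from 12950051 passed it in 2 other scalings, at -1.003 with the median of the common regions set to 0 and at -1.20 by clean read totals. The Duroc-specific region below NCAPG from 12725056 also passed it by clean read totals, at -1.14. Taken as 1 stretch, which was decided after their values were seen, the pair at NR6A1 held 54 Luchuan and 178 Duroc reads, a log2 ratio of -1.13 (-1.62 to -0.70). A weaker region from 265469359 to 265469600 held 6 reads in Luchuan and 35 in Duroc, a log2 ratio of -1.79 (-3.51 to -0.71). The opposite direction was past 2-fold at 1 region of NR6A1, Luchuan-specific from 265373726 to 265373875 with 17 and 11 reads, a log2 ratio of 1.16 (0.02 to 2.44), which fell short of 2-fold by clean read totals (0.95) and with a factor for each class by signal (0.49). Among regions of 50 reads or more, the one leaning most to Luchuan, from 265367733 to 265367953, had 32 and 37 reads, a log2 ratio of 0.37 (-0.37 to 1.08). Outside the gene, 11.7 kb above it in the body of OLFML2A, the Duroc-specific region from 265582517 to 265582823 held 42 reads in Luchuan and 102 in Duroc, a log2 ratio of -0.69 (-1.26 to -0.18). Of all 32 ratios, 10 were above 0 and 21 below. By place, the 19 regions of the body summed to a log2 ratio of -0.12 (-0.23 to -0.012), the 3 below the gene to -0.22 (-0.64 to 0.19) and the 10 above it to -0.07 (-0.19 to 0.04).

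VRTN (gene ID 100157734) is the shortest of the 6 genes, on chromosome 7 from 97614707 to 97624273, and was the faintest. No region lay within 2 kb of its lower end. Inside the gene, toward its upper end, 2 Luchuan-specific regions stood 32 bases apart. From 97622022 to 97622269 there were 29 Luchuan and 19 Duroc reads, a log2 ratio of 1.16 (0.30 to 2.10), and from 97622302 to 97622470 there were 20 and 8, a log2 ratio of 1.79 (0.65 to 3.28). The first of them was at 0.95 by clean read totals, short of 2-fold. Taken as 1 stretch, also decided after their values were seen, they held 49 Luchuan and 27 Duroc reads, a log2 ratio of 1.41 (0.72 to 2.16). Beyond the upper end, the common region from 97625955 to 97626169 held 20 reads in Luchuan and 35 in Duroc, a log2 ratio of -0.21 (-1.11 to 0.60).

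Most reads of the VRTN window, 71.6%, belonged to 1 region 29.1 kb below the gene, from 97585202 to 97586063, which spans the upper end of ABCD4. It had 298 Luchuan and 370 Duroc reads, a log2 ratio of 0.26 (0.03 to 0.48). On the other side, 35.3 kb above VRTN in the body of SYNDIG1L, the Luchuan-specific region from 97659539 to 97659696 held 24 reads in Luchuan and 6 in Duroc. Its log2 ratio of 2.41 (1.24 to 4.15) was the largest of all 72 regions, and its interval was the only one to lie wholly past 2-fold. It rested on 30 reads. In the same gene, a Duroc-specific region from 97668236 to 97668445 held 10 reads in Luchuan and 27 in Duroc, a log2 ratio of -0.78 (-2.07 to 0.23). The remaining regions, both Luchuan-specific, had 22 and 24 reads in ABCD4 and 11 and 10 reads in SYNDIG1L, and the intervals of both included 0.

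**Figure D2:**
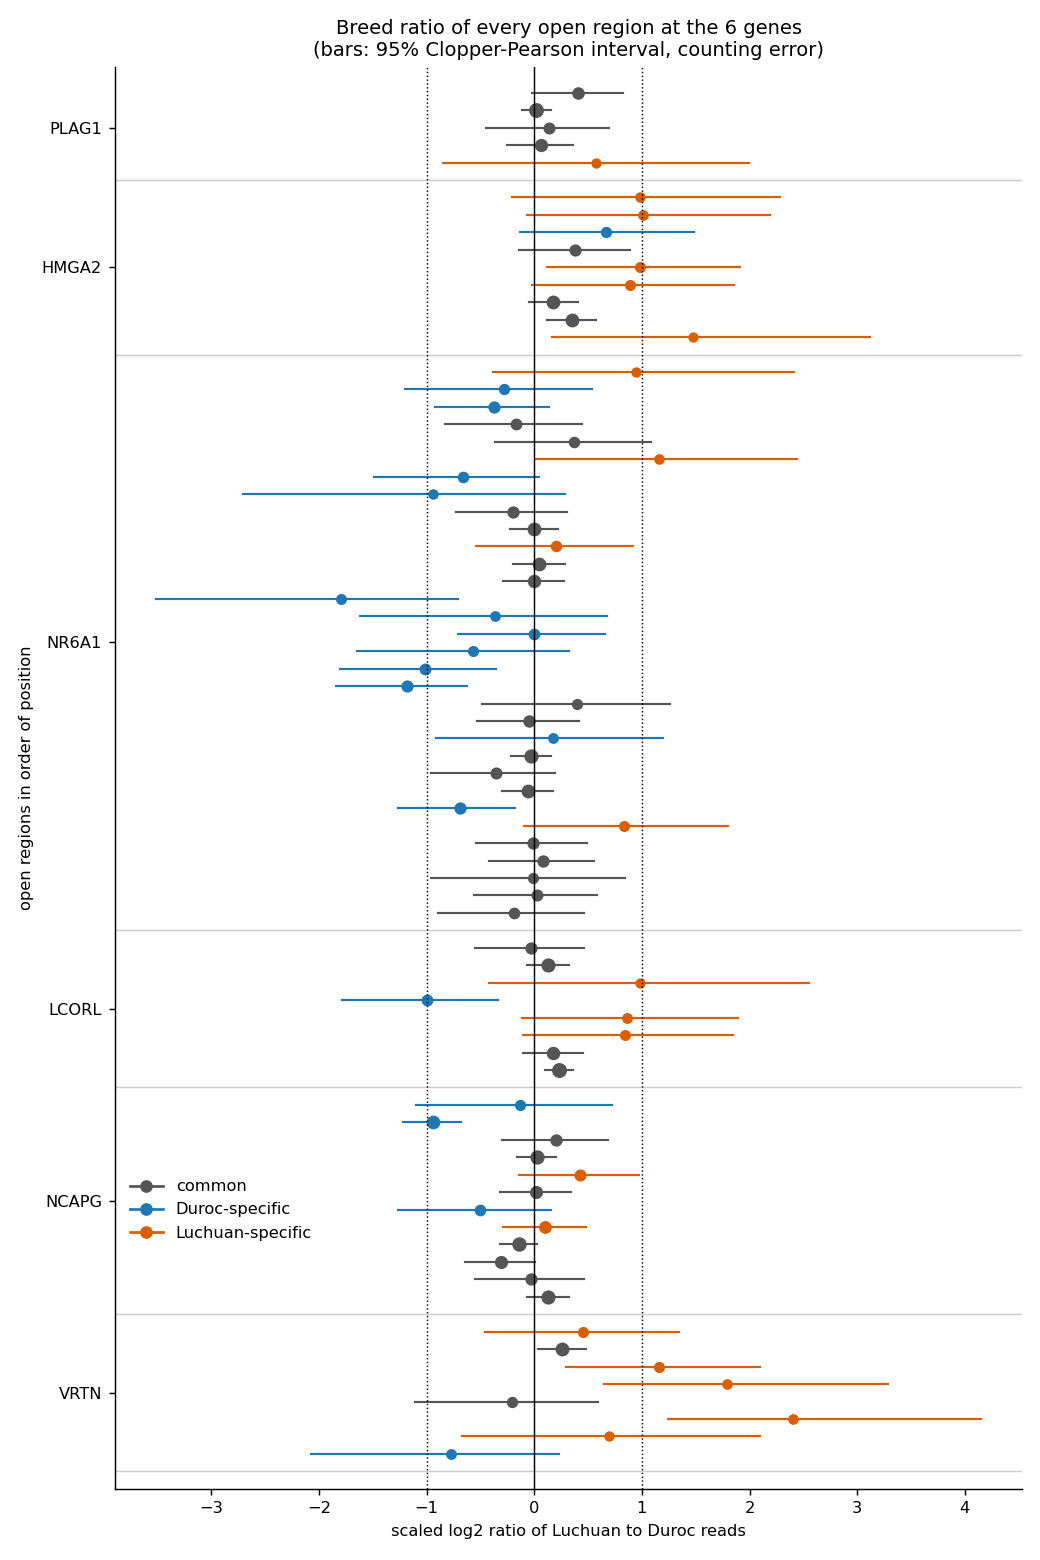
Scaled log2 ratio of Luchuan to Duroc reads (horizontal axis) of every region at the 6 genes, in order of position within each gene, with 95% Clopper-Pearson intervals for counting error; colors mark common, Duroc-specific and Luchuan-specific regions, larger points hold more reads, and dotted lines mark 2-fold. Common regions stay within 2-fold, where 2.39% of all common regions of the table are past it. The 3 regions past -1 are in NR6A1, and the region farthest right, at 2.41, is in the window of VRTN.

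The ends of these genes were open to very different degrees. The level used here is reads per kb of the strongest region within 2 kb of either end, averaged over Duroc and scaled Luchuan reads. LCORL came first with 1029 reads per kb, above 97.3% of the 19550 genes. PLAG1 followed with 856 and NR6A1 with 734, above 87.9% and 76.5% of genes. NCAPG had 356 reads per kb, HMGA2 202 and VRTN 150, and 43.6%, 34.1% and 30.2% of genes had less. Over all genes the median was 459 reads per kb, and 73.9% of genes had any region within 2 kb of an end. Each of the 6 genes had regions at 1 end and none at the other, where 25.7% of all genes had regions at both. By breed, the strongest region at LCORL had 1111 scaled Luchuan and 948 Duroc reads per kb, that of PLAG1 862 and 850, and that of NR6A1 727 and 742. Without values per boar, it cannot be said which neighbours in this order differ beyond the spread between animals.

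Open regions were sparse at 3 of the genes. The windows of LCORL, PLAG1 and HMGA2 held 3.05, 3.33 and 3.73 regions per 100 kb, and 14.6%, 15.8% and 18.0% of the 18407 gene windows with any region held fewer. VRTN with 7.30, NCAPG with 8.11 and NR6A1 with 9.13 were closer to the median of 8.68. In the common regions, the stretch called as open was longer in Duroc at 25 of 34 and longer in Luchuan at 9, and the median ratio of the Luchuan to the Duroc length was 0.906. Over all 68776 common regions this ratio was 0.914, and 69.6% were longer in Duroc, the breed with more reads. At the lower end of HMGA2, the common region was called over 403 bases in Duroc and 195 in Luchuan.

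Summed over all regions of a window, the breeds differed by far less than 2-fold at each of the 6 genes, where 2.99% of all gene windows were past 2-fold. PLAG1 had 1025 Luchuan and 1455 Duroc reads, a log2 ratio of 0.065 (-0.05 to 0.18). HMGA2 had 773 and 891, a log2 ratio of 0.37 (0.22 to 0.51), and VRTN 434 and 499, also 0.37 (0.18 to 0.56). These are the windows that leaned most to Luchuan, and 91.9% and 92.0% of gene windows had a lower ratio. LCORL had 1531 and 2014 reads, a log2 ratio of 0.17 (0.08 to 0.27). NR6A1 leaned slightly to Duroc, with 2149 and 3429 reads and a log2 ratio of -0.10 (-0.18 to -0.026). So did NCAPG, with 1981 and 3196 reads and a log2 ratio of -0.12 (-0.20 to -0.038), but its gene body alone had 0.10 (-0.08 to 0.28). Over all windows the median was -0.015, with 5% below -0.37 and 5% above 0.53.

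These sums moved with depth and scaling. Over 10 classes of regions ordered by signal, the median ratio was 0.039 in the strongest class, fell to between -0.10 and -0.015 in the 6 classes below it, and rose in the 3 weakest, to 0.04, 0.18 and 0.66. Windows under 2000 reads, such as those of HMGA2 and VRTN, had a median of 0.11, with quartiles of -0.12 and 0.35. The part of this trend in the ratios of HMGA2 and VRTN was not tested, but with a separate factor for each of these 10 classes they were 0.38 and 0.33. Scaling by the clean reads of the sequenced libraries shifted all ratios by -0.20, which turned PLAG1 to -0.14 and LCORL to -0.029 and left HMGA2 at 0.16 and VRTN at 0.17.

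**Figure D3:**
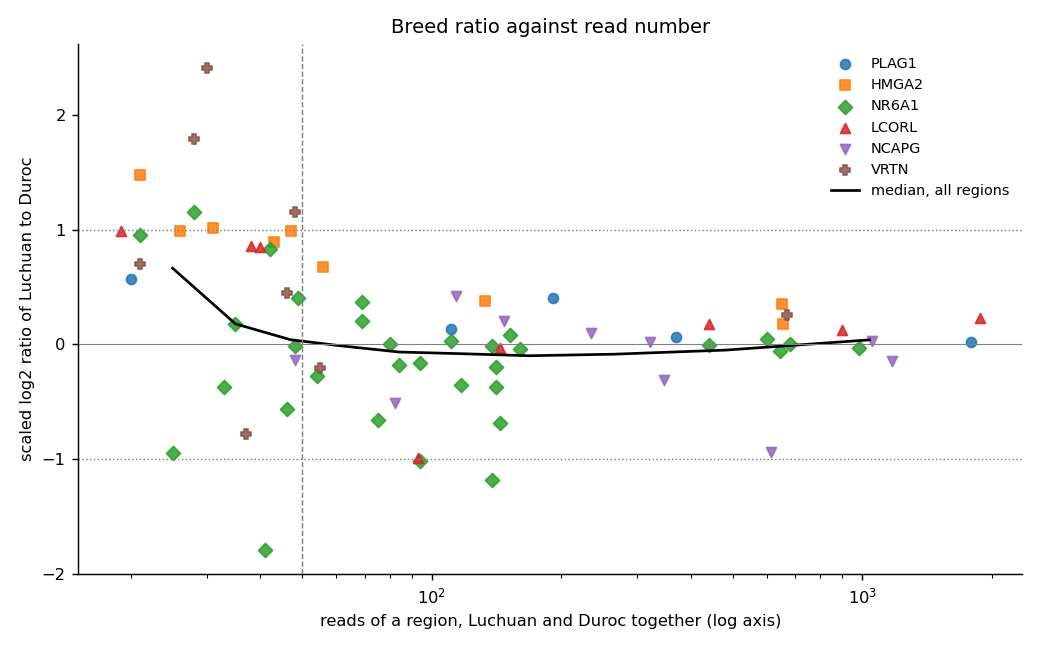
Scaled log2 ratio of Luchuan to Duroc reads of the 72 regions against their reads in both breeds together (log axis), with the median of all regions in each of 10 classes by signal as a line, dotted lines at 2-fold and a dashed line at 50 reads; the 2 regions shared by NCAPG and LCORL are drawn once, as LCORL. All 6 regions above 1 lie left of the dashed line, where the median of all regions also rises, to 0.66 in the weakest class.

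**Figure D4:**
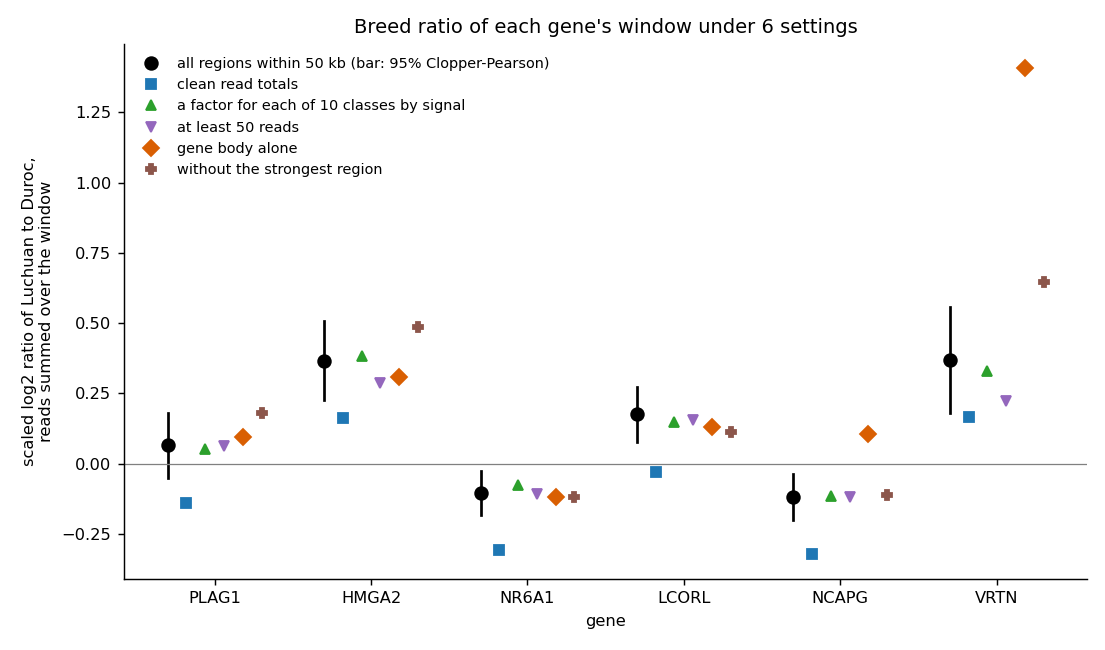
Scaled log2 ratio of Luchuan to Duroc reads summed over the window of each gene, with its 95% Clopper-Pearson interval for counting error, beside 5 other settings: clean read totals, a factor for each of 10 classes of regions by signal, regions of at least 50 reads, the gene body alone, and the window without its strongest region. PLAG1 and LCORL fall below 0 with clean read totals (-0.14 and -0.029), and NCAPG rises above 0 in the gene body alone (0.10). VRTN ranges from 0.17 to 1.41, where 1.41 is its gene body alone, with 2 regions, both Luchuan-specific.

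Related genes were read in the same windows. Of 13 genes of the same families and complexes, 12 matched by symbol and 11 had regions. Their median window log2 ratio was 0.035, none was past 2-fold, and 8 of their 131 regions (6.11%) were past 2-fold toward Luchuan and 2 (1.53%) toward Duroc, both below the 7.50% and 5.26% of all regions. HMGA1, the close relative of HMGA2, had 3783 Luchuan and 5335 Duroc reads, a log2 ratio of 0.07 (0.01 to 0.13). PLAGL1 and PLAGL2, the relatives of PLAG1, had 0.12 (-0.00014 to 0.24) and 0.16 (-0.030 to 0.34). Among condensin subunits, SMC2 had 0.43 (0.28 to 0.57), the highest of this list, and NCAPD2, a partner of NCAPG in condensin I, had the lowest, -0.10 (-0.15 to -0.06).

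All 17 other genes of mammalian body size had regions, with a median window log2 ratio of -0.015, equal to that of all genes to this precision. Of their 396 regions, 18 (4.55%) were past 2-fold toward Luchuan and 13 (3.28%) toward Duroc, below the 7.50% and 5.26% of all regions. IGF2BP2, which encodes a protein that binds IGF2 mRNA and is a known target of HMGA2, had 1354 Luchuan and 1619 Duroc reads, a log2 ratio of 0.31 (0.21 to 0.42). IGF2 itself had 203 and 273 reads, a log2 ratio of 0.14 (-0.13 to 0.41). GHR, the growth hormone receptor, had 7337 and 9131 reads over 87 regions, a log2 ratio of 0.25 (0.21 to 0.30). The lowest ratio was at LIN28B, an inhibitor of the let-7 microRNAs that restrain HMGA2, with 162 and 313 reads and a log2 ratio of -0.38 (-0.66 to -0.10).

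Of 12 genes of axial segmentation and vertebra number, 11 matched and had regions. Duroc was higher in the window sums of 10 of them, and the median log2 ratio was -0.13, where 52.9% of all gene windows, and 59.9% of those with 2000 reads or more, lay below 0. The 10 skeletal muscle markers mostly lay to the same side, with a median of -0.26 and 8 of 10 below 0. Among them MYH4, MYH1 and MYH2, with -0.55, -0.54 and -0.53, have windows that share regions, so these genes do not count separately. No window of the 11 segmentation and vertebra number genes was past 2-fold. Of the 214 regions of these 11 genes, 12 (5.61%) were past 2-fold toward Duroc, near the 5.26% of all regions. Toward Luchuan 4 (1.87%) were, below the 7.50% of all regions. MSGN1, a transcription factor of the presomitic mesoderm, had 1318 Luchuan and 2963 Duroc reads, a log2 ratio of -0.60 (-0.69 to -0.50). LFNG, a glycosyltransferase of the segmentation clock, had 1478 and 3013 reads, a log2 ratio of -0.46 (-0.55 to -0.37), and HOXA10 had -0.25 (-0.31 to -0.19). LTBP2, which lies on the same chromosome as VRTN, had 3321 and 5483 reads, a log2 ratio of -0.15 (-0.22 to -0.09), while VRTN leaned the other way.

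Among 28 matched genes listed as neighbours of the 6, the median window log2 ratio was -0.021, and 5 of their 211 regions (2.37%) were past 2-fold toward Luchuan and 15 (7.11%) toward Duroc, where all regions had 7.50% and 5.26%. Some of their windows share regions with those of the 6 genes or with each other, so not all of the values are separate. FAM184B, next to NCAPG, had 4853 Luchuan and 8071 Duroc reads, a log2 ratio of -0.16 (-0.22 to -0.11). Of its 35 regions, 5 were past 2-fold toward Duroc, where 5.26% of all regions were. ABCD4 beside VRTN had 0.31 (0.12 to 0.50). PENK, which lies outside the windows of the 6 genes, had the lowest ratio of this list, -0.51 (-0.76 to -0.28).

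The limit of 50 kb left out some regions close by. Below NCAPG, the last region inside it, at 47.0 kb, had 18 Luchuan and 30 Duroc reads, a log2 ratio of -0.14, and the next outside, at 52.7 kb, had 13 and 59, a log2 ratio of -1.53. Above NR6A1, the regions at 49.6 kb and 55.7 kb had log2 ratios of -0.18 and 0.65. Below HMGA2, the last region inside, at 48.8 kb, had 15 and 11 reads, and the next outside, at 77.6 kb, had 559 Luchuan and 596 Duroc reads, a log2 ratio of 0.48. No region lay above PLAG1 or NCAPG within 50 kb, and the nearest ones were at 54.5 kb and 94.7 kb. The one above NCAPG lies in the body of LCORL, from 12901770, and was counted in the window of LCORL.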

How the data were processed

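Per the labels, the authors ran Trimmomatic (version 0.36) on the ATAC-seq reads, used Bowtie2 against Sscrofa11.1, the genome of a Duroc pig, and called peaks with MACS2. The tool that counted reads, duplicate removal, the transposase shift and the pooling of boars are not given in the sources used here. The authors deposited whole-number read counts for 217213 peak intervals, 1 per breed and not scaled for depth. Their fold change, mean signal and P columns were not used. RNA-seq was not analysed here.

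Starts were read as counted from 0 and are given from 1. Common intervals that overlapped or touched were joined, and the longest stood for each region. Regions were placed by midpoint on RefSeq genes of Sscrofa11.1, which have no strand or exons here, so both gene ends stand in for the start site. All regions together held 20759894 Duroc and 13746020 Luchuan reads. No filter was applied to low counts.

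Regions were named by rule: the most reads of a gene, within 2 kb of its ends, past 2-fold with 50 reads or more, or the highest and lowest ratio at 50 reads or more. Others were named after their values were seen. Members, lists and rules were chosen with earlier results of these data known. Scaling, intervals and calls were tested on simulated counts with counting error alone, and calls only at strong regions. Spread between boars and calls at weak regions were outside that test. Promoter motifs were not counted, since no sequence was used here. The work was done in Python 3.11.15 with SciPy 1.17.1, NumPy 2.4.6, Matplotlib 3.10.9 and pandas 2.3.3.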

Additional observations from a re-analysis of the deposited data

How the results depend on the processing

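With counts scaled by the clean reads of the libraries, the window log2 ratios were -0.14 for PLAG1, 0.16 for HMGA2, -0.31 for NR6A1, -0.029 for LCORL, -0.32 for NCAPG and 0.17 for VRTN, and 3 regions were past 2-fold toward Luchuan and 6 toward Duroc. The shift of -0.20 is that of the scaling itself. A factor for each of 10 classes by signal left 3 regions past 2-fold toward Luchuan, a minimum of 50 reads left 0 and the gene bodies alone held 3. A fold of 1.5 gave 16 toward Luchuan and 9 toward Duroc. The gene body alone gave 0.10 for NCAPG and 1.41 for VRTN, and a window of 10 kb gave 0.10 and 0.72, each with fewer regions summed. The body of VRTN holds only the 2 Luchuan-specific regions described above as a pair, with 49 Luchuan and 27 Duroc reads. The median of the regions was 0.89 for HMGA2, -0.0062 for NCAPG and 0.57 for VRTN. In 2 alternatives chosen after seeing the data, leaving out regions inside another gene gave 0.0075 for NCAPG and 0.72 for VRTN, and leaving out the strongest region gave 0.65 for VRTN. Other values of these sums and counts stayed within their counting interval or within 1.5 times, and of 105 values for named regions 101 stayed within the interval, 4 moved and 0 of those past 2-fold changed sign. The 4 that moved were the strongest regions of PLAG1, NR6A1, LCORL and NCAPG, all by clean read totals. No paired analysis was possible because the read columns carry no replicate number, and no boar could be left out. Of the 7 regions past 2-fold with fewer than 50 reads, 6 had a counting interval that excluded 0.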
